A study of Mus musculus with 18 samples.

Results

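The genes of the actin cytoskeleton and of cell motility were followed in 3 T-cell subsets exposed to small extracellular vesicles (sEVs) of leukemic or healthy mouse spleens. A list of 45 genes was taken by symbol, with integrins left out, and was chosen with earlier results of these data known. Each of the 45 genes was looked up in the platform annotation of the arrays. Of these, 42 were measured, each by 1 of the 22206 probe sets, and Actg1, Actr2 and Arpc3 were not analysed here. Regulatory T cells (Treg), CD8+ T cells and CD4+ conventional T cells (CD4+ Tconv) were sorted from Foxp3 YFP/cre spleens, in which yellow fluorescence marks Foxp3-expressing Treg, and kept for 24 h with IL2 (10 ng/ml) and sEVs. LME-sEVs came from spleens of TCL1 mice, whose B cells carry a TCL1 transgene and develop a disease like chronic lymphocytic leukemia, and HCME-sEVs from healthy control spleens. All 6 groups therefore shared the strain of the T cells, IL2 and an sEV exposure, and no group was cultured without vesicles. Each subset had an LME and an HCME group of 3 Clariom S arrays each. The labels give neither the age of the mice nor whether replicates were separate animals or cultures, so the p-values rest on the scatter among arrays of a group, which may be technical. They name an sEV amount of 50 ug/ml for every sample, whereas the methods scaled the amount to the sEV content of each kind of spleen, so an unequal dose and the source of the sEVs cannot be told apart.

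T cells crawl, adhere and form contacts with other cells by building and taking apart filaments of actin. Signals at the membrane switch this machinery on, WASP and WAVE proteins pass them to the Arp2/3 complex, which starts branched filaments, and formins start unbranched ones. Monomer-binding proteins set the supply of free actin, capping and elongating proteins set filament length, crosslinkers and membrane linkers tie filaments to each other and to adhesion sites, and myosin II pulls on them.

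Values are log2 signals, so a difference of -1 means that the LME mean was 50% of the HCME mean. A probe set was called at a Benjamini-Hochberg adjusted p below 0.05 over all 22206 probe sets and an absolute log2 difference above 1, by limma within a subset. The signal of 1429 probe sets for olfactory, vomeronasal and trace amine receptors, which T cells are not known to use, served as background. The 95th percentile of their means was 8.80 in CD4+ Tconv, 8.08 in CD8+ T cells and 7.62 in Treg, and 28, 37 and 36 of the 42 members had a mean above it. In CD4+ Tconv the receptors ran higher on LME arrays, with a median difference of 0.32 against 0.07 for all probe sets. The upper decile of an array lay 0.73 to 1.15 above its own 95th percentile of receptor signals on LME arrays of CD4+ Tconv and 1.54 to 1.98 on HCME arrays. On CD8+ T-cell arrays this distance was 3.39 to 3.99 for LME and 3.48 to 3.67 for HCME. For Treg it was 3.09 to 3.49 for LME and 2.59 to 3.37 for HCME, where HCME array 3 was the lowest and also had the lowest mean correlation with the other Treg arrays (0.926, against 0.951 to 0.955 for the other 5). Cd8b1 averaged 17.08 in LME and 17.18 in HCME CD8+ T cells. In CD4+ Tconv its means were 9.01 with LME and 9.54 with HCME, and in Treg 10.25 with LME and 9.70 with HCME, so that it was above background in every subset. Cd4 averaged 10.21 and 10.15 in CD4+ Tconv, and of the Treg markers Ikzf2 averaged 11.41 and 11.29 and Il2ra 8.23 and 8.0 in Treg, while both were below background in CD4+ Tconv.

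CD4+ Tconv were the subset in which members were called. The titles number its HCME arrays first and its LME arrays next, so sEV source and sample order cannot be told apart there. After LME-sEVs, 6 of the 42 members fell relative to HCME-sEVs and none rose: Actn1, Rac2, Wasf2, Arhgdib, Dock2 and Elmo1. Over all probe sets 0.941% were called lower and 0.0721% higher. Because the list was chosen with earlier results known, setting its counts beside such shares is a description. The median member differed by -0.68, with 35 members lower and 7 higher in mean, where 42.8% of all probe sets were lower. LME and HCME arrays did not overlap for 29 members in the lower direction and 1 in the higher, Vcl, where the shares of all probe sets were 11.8% and 11.6%. The count was also 6 at an adjusted p below 0.05 with no fold threshold, and at an unadjusted p under 0.05 there were 26 members lower and 1 higher (10.9% and 7.86% of all probe sets).

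**Figure D1:**
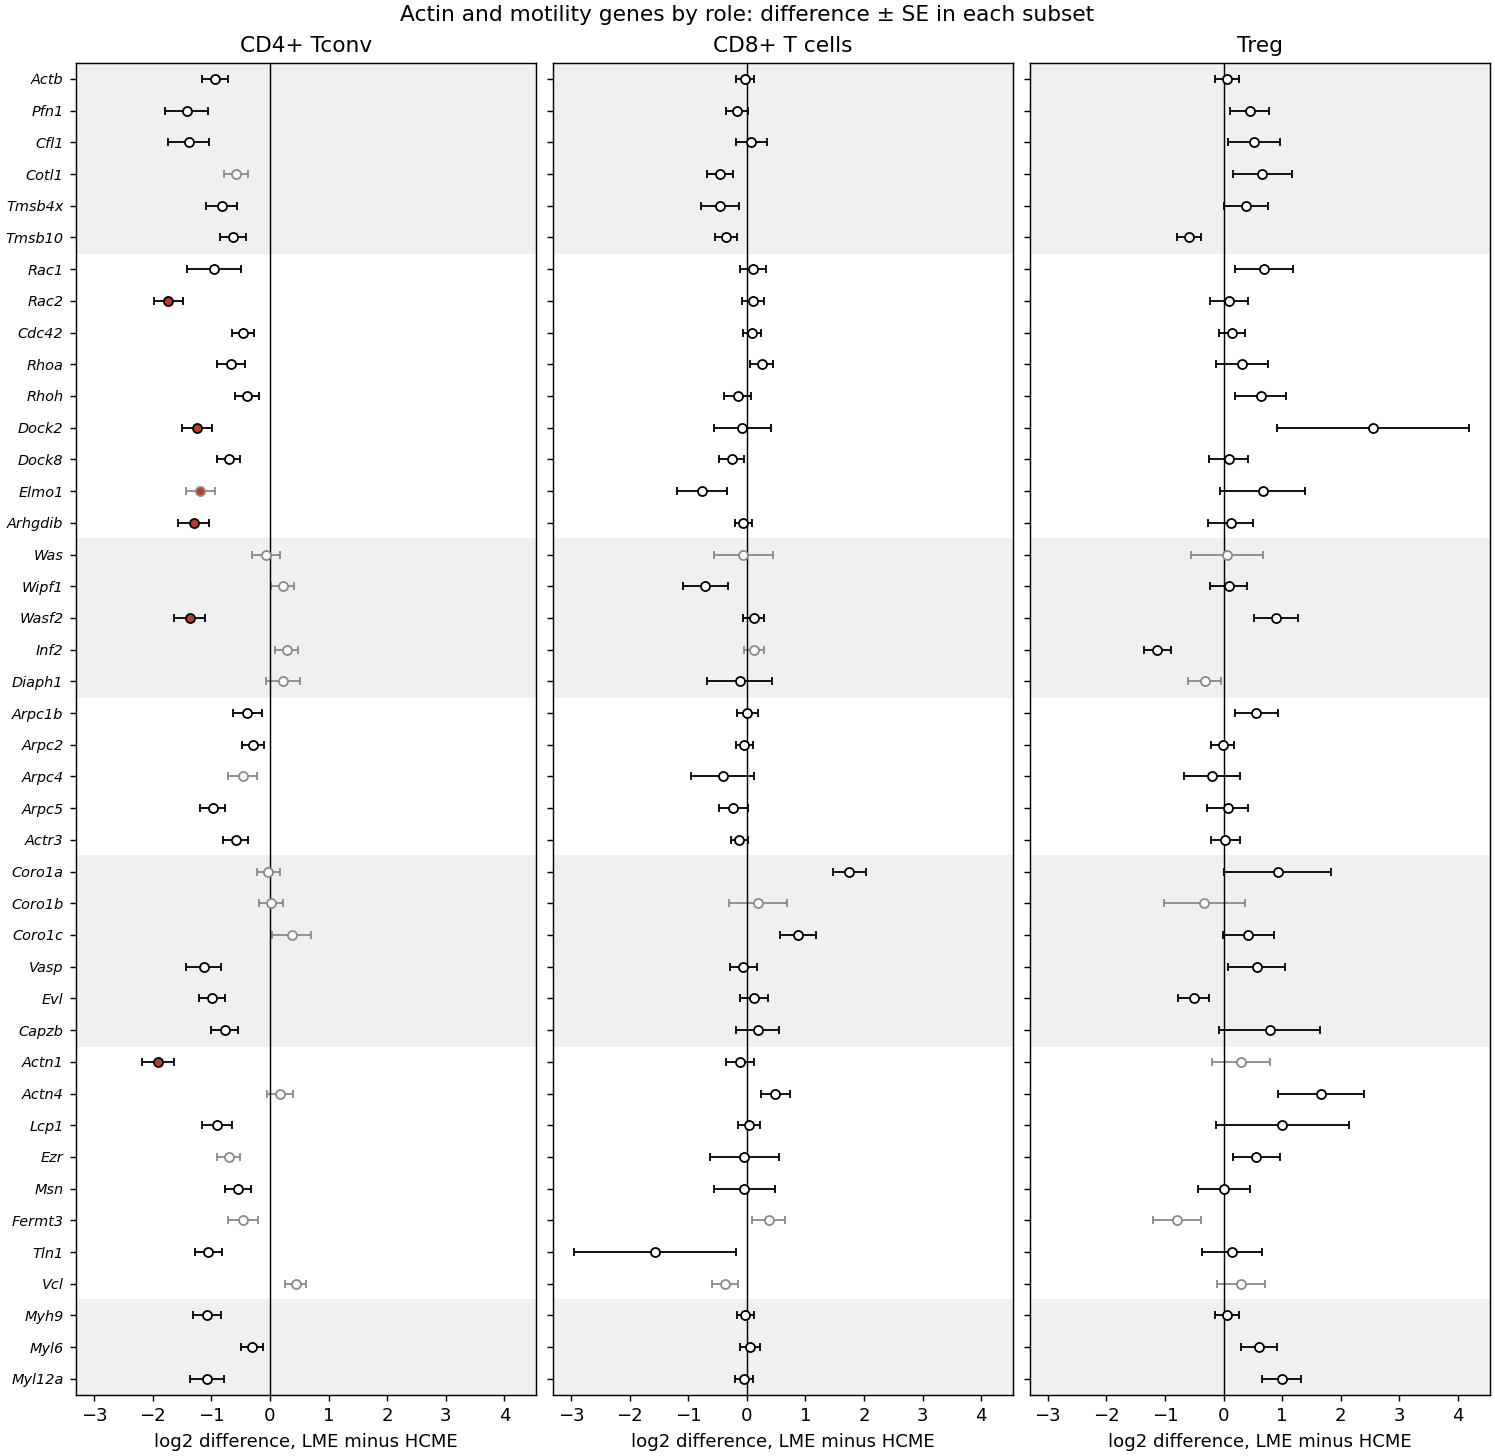
Log2 difference, LME minus HCME, of the 42 members (rows, grouped by role in shaded and unshaded bands in the order monomers and monomer binding, Rac1 to Arhgdib, nucleation promoters and formins, Arp2/3 complex, coronins with elongation and capping, crosslinkers and linkers, myosin II) in the 3 subsets, with bars of 1 SE from limma and 3 arrays per group. Filled points are called, grey outlines and bars mark a mean at or below the receptor background, and the 6 filled points all lie in CD4+ Tconv, from -1.91 for Actn1 to -1.19 for Elmo1.

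Rac2, Dock2, Elmo1 and Arhgdib were among the called members. Rac2, the Rac protein found mainly in blood cells, had signals of 11.89, 11.73 and 12.26 on LME arrays and 14.00, 13.81 and 13.27 on HCME arrays. Its LME mean was 30.1% of the HCME mean (log2 difference -1.73, SE 0.24, adjusted p = 0.033). Rac1, its widely expressed relative, had 14.62, 12.65 and 14.79 on LME arrays and 14.84, 15.20 and 14.89 on HCME arrays (log2 difference -0.96, SE 0.46, adjusted p = 0.287), with LME array 2 far below the other 5. Dock2, the exchange factor that loads Rac with GTP in lymphocytes, had 10.74, 10.08 and 10.98 on LME arrays and 11.81, 12.09 and 11.63 on HCME arrays (log2 difference -1.24, SE 0.26, adjusted p = 0.0485). Elmo1 encodes the scaffold that binds Dock2. It had 6.94, 6.97 and 7.51 on LME arrays and 8.58, 8.45 and 7.95 on HCME arrays (log2 difference -1.19, SE 0.24, adjusted p = 0.0466), and all 6 of these signals lie below the receptor background. Arhgdib, a guanine dissociation inhibitor, had 15.62, 15.00 and 16.11 on LME arrays and 16.85, 16.96 and 16.82 on HCME arrays (log2 difference -1.30, SE 0.27, adjusted p = 0.0476). LME and HCME arrays did not overlap for any of these 5 genes. Others did not pass: Dock8, an exchange factor of Cdc42, differed by -0.70, Rhoa by -0.66, Cdc42 by -0.46 and Rhoh by -0.39, with adjusted p from 0.105 to 0.332.

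**Figure D2:**
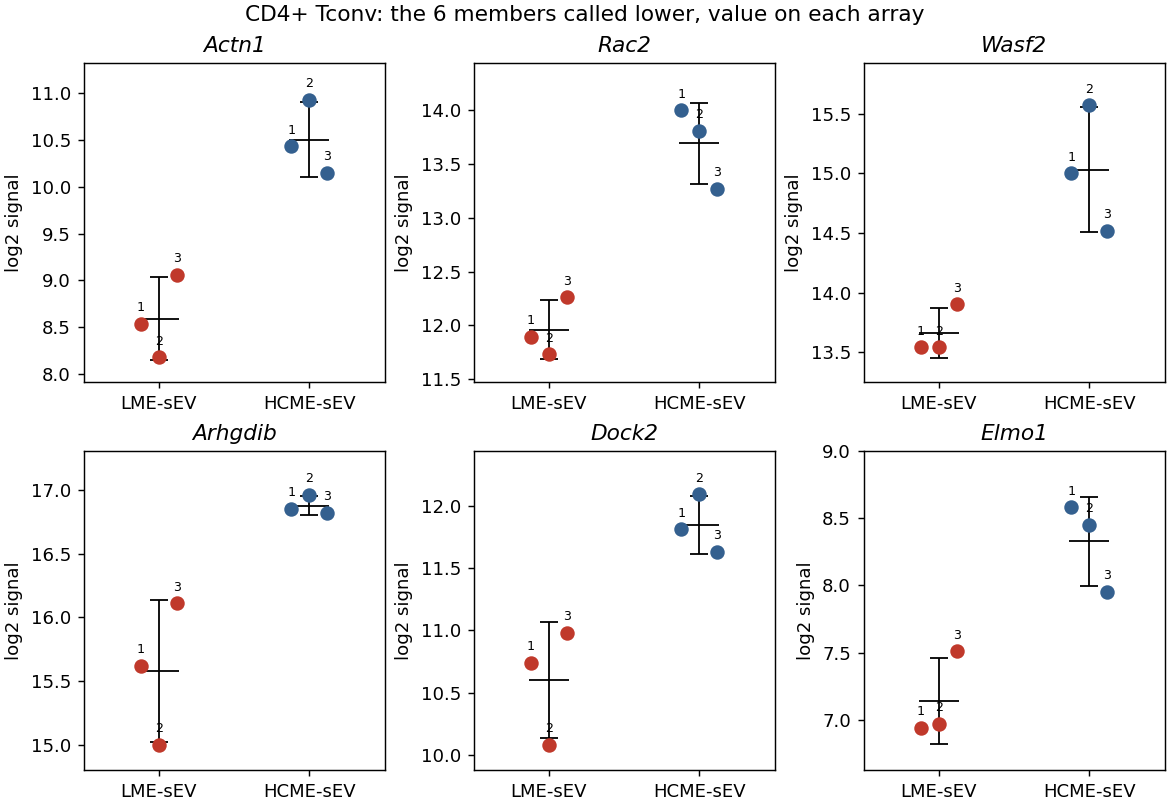
Log2 signal on each CD4+ Tconv array of the 6 members called lower, with LME-sEV arrays at left and HCME-sEV arrays at right of each panel. Numbers are replicate numbers and black bars show mean ± SD (n = 3), and in every panel the highest LME array, replicate 3, lies below the lowest HCME array, also replicate 3.

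Among nucleation promoters and formins, Wasf2 was called and the other 4 were not. Wasf2 encodes WAVE2, which carries the signal of Rac to the Arp2/3 complex, and had 13.54, 13.54 and 13.90 on LME arrays and 15.00, 15.57 and 14.52 on HCME arrays. The LME mean was 38.7% of the HCME mean (log2 difference -1.37, SE 0.27, adjusted p = 0.0431). Was, the Cdc42-driven counterpart of blood cells, averaged 5.19 ± 0.46 with LME and 5.26 ± 0.10 with HCME (SD, n = 3 each), and its WASP-binding partner Wipf1 8.58 ± 0.17 and 8.36 ± 0.17. The formin Inf2 had 7.22, 7.52 and 7.44 on LME arrays and 7.03, 7.24 and 7.06 on HCME arrays (0.28, SE 0.19, adjusted p = 0.448), and Diaph1, also a formin, differed by 0.22 (SE 0.29). The means of these 4 genes were below the receptor background.

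The 5 measured subunits of the Arp2/3 complex were all lower in mean after LME-sEVs, and none was called. Against the median of probe sets of similar signal, 3 lay below and 2 above, with a median of -0.19. Their differences ran from -0.98 for Arpc5 (SE 0.21, adjusted p = 0.053) through -0.59 for Actr3, -0.46 for Arpc4 and -0.39 for Arpc1b to -0.29 for Arpc2 (SE 0.19). Arpc5 averaged 12.76 ± 0.24 with LME and 13.74 ± 0.19 with HCME (SD, n = 3 each), and Arpc2 17.47 ± 0.19 and 17.76 ± 0.06. Arrays did not overlap for Arpc5, Actr3 and Arpc2, and the mean of Arpc4 was below the receptor background.

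All 6 measured genes of actin monomers and monomer binding were lower in mean with arrays that did not overlap, and none was called. Against the median of probe sets of similar signal, all 6 lay below, with a median of -0.57. Pfn1, profilin 1, which hands monomers to growing ends, had 14.26, 12.66 and 14.17 on LME arrays and 15.07, 15.28 and 15.00 on HCME arrays. Its difference of -1.42 was exceeded only by Actn1 and Rac2 among members, but LME array 2 lay far below the other LME arrays, the SE was 0.36 and the adjusted p 0.085. Cfl1, cofilin 1, which severs filaments, differed by -1.39 (SE 0.35, adjusted p = 0.0818). Actb, beta-actin itself, averaged 16.38 ± 0.34 with LME and 17.32 ± 0.14 with HCME (SD, n = 3 each; log2 difference -0.94, SE 0.22, adjusted p = 0.0696). The monomer-sequestering thymosins Tmsb4x and Tmsb10 differed by -0.82 (SE 0.26) and -0.63 (SE 0.22), and the filament-binding protein Cotl1 by -0.58 (SE 0.20), with a mean below the receptor background.

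None of the 6 genes for coronins, elongation and capping was called. Vasp and Evl, Ena/VASP proteins that speed the growth of filament ends, differed by -1.13 (SE 0.30, adjusted p = 0.0942) and -0.99 (SE 0.22, adjusted p = 0.0592), and Capzb, a subunit of capping protein, by -0.77 (SE 0.23, adjusted p = 0.12). Arrays of these 3 genes did not overlap. Of the coronins, which bind Arp2/3 branches, Coro1a averaged 8.25 ± 0.19 with LME and 8.28 ± 0.14 with HCME, Coro1b 6.83 ± 0.21 and 6.81 ± 0.21, and Coro1c 8.39 ± 0.42 and 8.02 ± 0.68 (SD, n = 3 each), all with means below the receptor background.

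Crosslinkers and linkers to membrane or adhesion sites held the member with the largest difference. Actn1, alpha-actinin 1, which crosslinks filaments and ties them to adhesion sites, had 8.54, 8.18 and 9.06 on LME arrays and 10.43, 10.93 and 10.15 on HCME arrays. Its LME mean was 26.6% of the HCME mean (log2 difference -1.91, SE 0.27, adjusted p = 0.033), and 2 of the 3 LME signals lay below the receptor background. Its close relative Actn4 averaged 7.62 ± 0.32 with LME and 7.45 ± 0.14 with HCME (SD, n = 3 each), on both sides below background, so the pair can be compared only within that limit. Tln1, talin, which activates integrins, differed by -1.05 (SE 0.23, adjusted p = 0.059), and Lcp1, the bundling protein L-plastin, by -0.90 (SE 0.26, adjusted p = 0.111). Ezr and Msn, the ERM proteins that link actin to the membrane, differed by -0.70 and -0.55, and Fermt3, the integrin activator kindlin-3, by -0.46 (SE 0.26), and the means of Ezr and Fermt3 were below the receptor background. Vcl, vinculin, which strengthens talin at adhesion sites, had the largest positive difference, with 6.78, 6.74 and 6.68 on LME arrays and 6.15, 6.38 and 6.36 on HCME arrays (0.44, SE 0.19, adjusted p = 0.239). Coro1c followed with 8.26, 8.86 and 8.04 on LME arrays and 7.77, 8.79 and 7.49 on HCME arrays (0.37, SE 0.33). Both probe sets were below the receptor background, which itself was higher on LME arrays.

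Myosin II was represented by a heavy chain and 2 light chains, all lower in mean with arrays that did not overlap and none called. Against the median of probe sets of similar signal, 2 lay below and 1 above, with a median of -0.68. Myh9, the nonmuscle heavy chain IIA, differed by -1.07 (SE 0.24, adjusted p = 0.0582), Myl12a, a regulatory light chain, by -1.08 (SE 0.29, adjusted p = 0.0937) and Myl6, an essential light chain, by -0.31 (SE 0.19, adjusted p = 0.41). Actb and Myl12a have near-identical relatives in the genome, and probe sequences were not used here to separate them.

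Promoter sequences are shown for the members with the lowest and the highest difference in CD4+ Tconv, Actn1 and Vcl, and for the other measured members that hold a CArG box, the site of serum response factor, which acts on many actin genes. Windows ran from 250 bases before to 50 after an annotated start in RefSeq (GRCm38.p6), and 39 of the 45 listed genes had one. Actb, Rac1, Rac2, Cotl1, Coro1b and Diaph1 had none and were not searched. The box was searched on both strands and was found in 4 of these 39 genes (10.3%), namely Vcl, Myl6, Arpc4 and the unmeasured Actg1, and in 1.81% of the 27025 genes with a window. Capitals mark it.
Vcl, chr14:20929148-20929447, plus strand: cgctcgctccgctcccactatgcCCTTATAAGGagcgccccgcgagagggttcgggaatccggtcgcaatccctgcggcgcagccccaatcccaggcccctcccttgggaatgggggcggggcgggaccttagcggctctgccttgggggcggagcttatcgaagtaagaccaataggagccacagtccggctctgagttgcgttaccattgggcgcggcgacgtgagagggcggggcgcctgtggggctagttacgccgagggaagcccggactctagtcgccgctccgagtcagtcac
Myl6, chr10:128492960-128493259, minus strand: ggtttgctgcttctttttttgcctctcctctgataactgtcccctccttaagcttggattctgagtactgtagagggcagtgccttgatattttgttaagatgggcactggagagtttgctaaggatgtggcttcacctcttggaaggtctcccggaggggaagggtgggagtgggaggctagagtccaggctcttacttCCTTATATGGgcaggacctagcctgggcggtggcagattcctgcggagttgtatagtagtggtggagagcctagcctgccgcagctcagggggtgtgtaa
Arpc4, chr6:113377863-113378162, plus strand: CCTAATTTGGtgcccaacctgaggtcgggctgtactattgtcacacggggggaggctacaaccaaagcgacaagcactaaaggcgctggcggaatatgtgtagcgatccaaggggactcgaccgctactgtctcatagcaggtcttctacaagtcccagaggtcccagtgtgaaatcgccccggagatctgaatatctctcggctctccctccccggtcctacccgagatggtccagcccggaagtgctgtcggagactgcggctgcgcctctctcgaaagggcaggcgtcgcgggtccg
Actn1, chr12:80260314-80260613, minus strand: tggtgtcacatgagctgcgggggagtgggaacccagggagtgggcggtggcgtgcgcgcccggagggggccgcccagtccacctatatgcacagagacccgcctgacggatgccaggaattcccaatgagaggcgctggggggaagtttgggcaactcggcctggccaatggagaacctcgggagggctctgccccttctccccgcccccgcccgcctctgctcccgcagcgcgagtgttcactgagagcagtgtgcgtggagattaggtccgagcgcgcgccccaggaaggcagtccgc
No window of Actn1, Wasf2, Arhgdib, Dock2 or Elmo1 held the box, and Rac2, also called, had no window to search. The 3 measured genes with a box differed by 0.44 (Vcl), -0.31 (Myl6) and -0.46 (Arpc4) in CD4+ Tconv, which is a description and no test.

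The differences in CD4+ Tconv moved with signal, for members as for other genes. Of the 42 members, 18 were in the brightest of 20 equal bins of probe sets by mean signal. In that bin the median probe set differed by -0.39 and 84.2% were lower in mean, and the 18 members had a median of -0.97 and were all lower. Set against the median of its own bin, a member differed by a median of -0.455, and 33 of the 42 lay below it. Among probe sets above the receptor background 3.06% were called lower and 71.6% were lower in mean, beside 5 called and 28 lower of the 28 members there. At or below background 7 of 14 members were lower and 1, Elmo1, was called, beside 34.8% lower and 0.351% called lower of all probe sets there. From the median of their own bins, Actn1, Rac2 and Elmo1 differed by -1.63, -1.34 and -1.30, and Arpc2, Myl6 and Cdc42 by 0.10, 0.09 and -0.07.

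**Figure D3:**
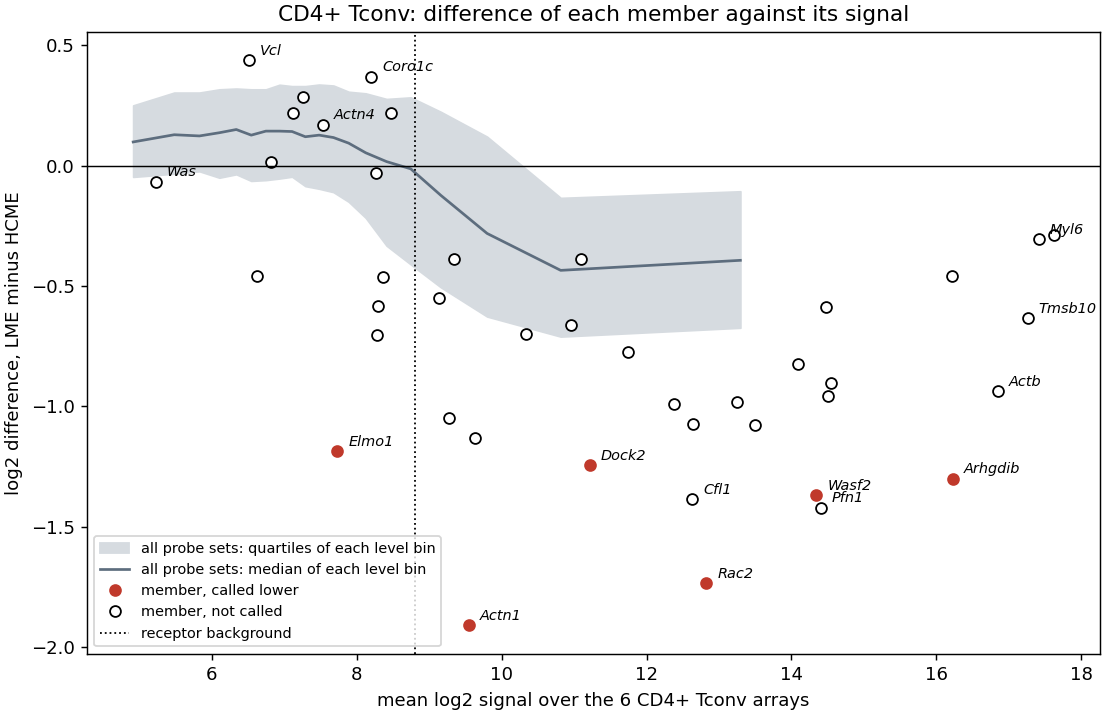
Log2 difference, LME minus HCME, of each member in CD4+ Tconv against its mean log2 signal over 6 arrays, with the median and quartiles of all probe sets in 20 level bins. Bright probe sets as a whole lie below 0 (median -0.39 in the brightest bin), and most members lie below that line.

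The calls in CD4+ Tconv depended on single arrays. Without LME array 1, HCME array 1 or HCME array 2 no member was called, and without LME array 2, LME array 3 or HCME array 3 there were 5, 3 and 4. The median of the members stayed between -0.74 and -0.60. After quantile normalization and after cyclic loess only Actn1 remained called, and the median was -0.46 and -0.43. With the receptor signal of each array as a covariate, chosen after seeing the data, no member was called (lowest adjusted p 0.604) and the median was -0.57. The methods' t-test, the unpaired test that the paper names for most of its figures, was also run. It gave 23 members lower and 1 higher at an unadjusted p under 0.05 (7.55% and 6.09% of all probe sets) and none after Benjamini-Hochberg adjustment. The paper analysed its arrays in Transcriptome Analysis Console and does not state the test used there. At an FDR below 0.05 and a log2 fold change above 1, it reports regulated genes at 24 h in all 3 subsets. Here no probe set was called in CD8+ T cells or Treg at the same thresholds by limma within the subset. The source of this difference was not tested.

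**Figure D4:**
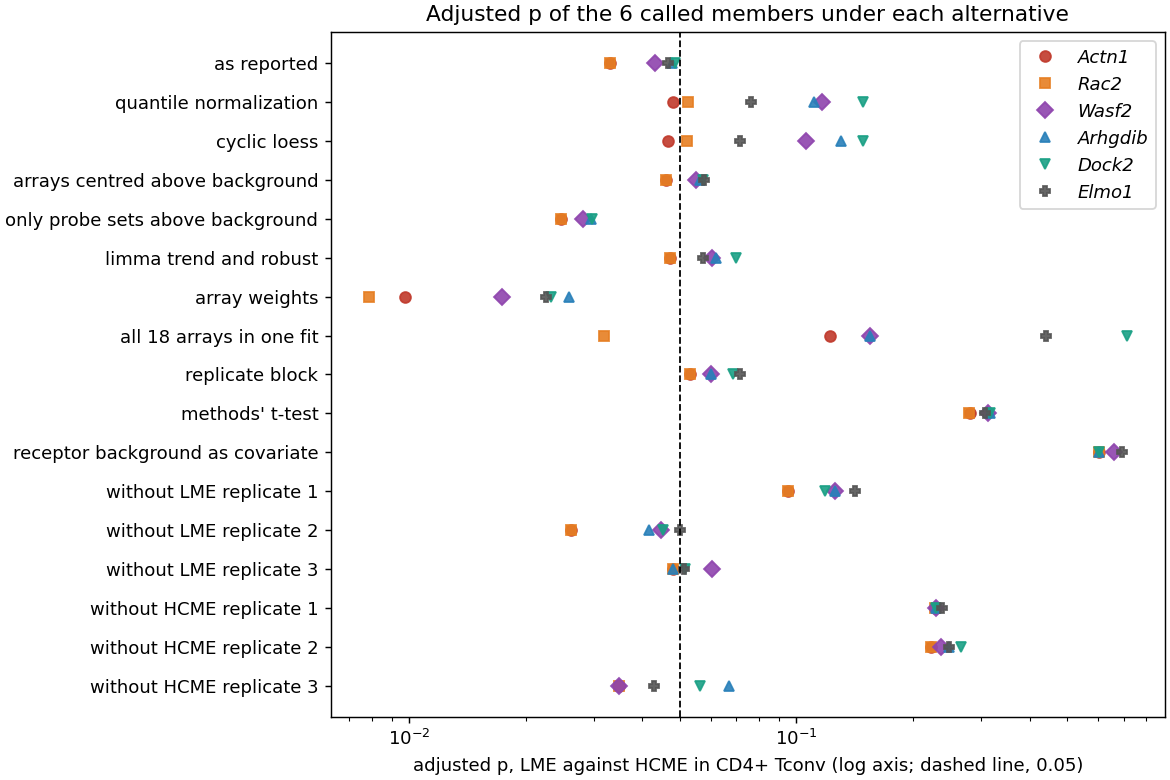
Adjusted p (log axis) of the 6 members called in CD4+ Tconv, as reported and under each alternative, with a dashed line at 0.05. Actn1 and Rac2 pass under 9 and 8 of the 16 alternatives (the markers of Actn1 lie under those of Rac2 where both values coincide), and all 6 lie right of the line without LME array 1, HCME array 1 or HCME array 2.

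Markers of the T-cell receptor complex were also lower in mean in CD4+ Tconv, and none was called. Cd3e averaged 10.83 with LME and 12.22 with HCME (log2 difference -1.40, adjusted p = 0.0828), Cd3g differed by -0.61 and Cd3d by -0.35, while Cd4 averaged 10.21 and 10.15. Markers of other cells were mostly at background: 1 of 9 B-cell, 1 of 3 erythroid, 1 of 9 monocyte and macrophage and 2 of 6 platelet markers were above it, and none of them was called. Those above it were Blk (9.17 with LME and 8.97 with HCME), Slc4a1 (9.15 and 9.07), Lyz2 (9.30 and 8.97), Itga2b (11.08 and 11.09) and Gp9 (10.43 and 10.08), while Cd79a, Ms4a1, Csf1r, Adgre1 and Alas2 were below it in both groups. All 9 monocyte and macrophage markers were higher in mean on LME arrays, with a median of 0.29, and arrays of C1qb did not overlap (0.61, SE 0.21, adjusted p = 0.167). The median signal of the platelet list was 7.69 to 8.13 on LME arrays and 7.22 to 7.70 on HCME arrays, of the B-cell list 7.11 to 7.22 and 6.97 to 7.14, of the monocyte and macrophage list 6.81 to 7.35 and 6.82 to 6.92, and of the erythroid list 7.90 to 8.30 and 7.55 to 8.23. The part of these markers, or of the higher receptor signal, in the members' differences was not tested. The covariate above cannot decide it, because it separated LME from HCME arrays. Of 11 stromal and vessel markers, Pecam1, which T cells also make, was called lower (-1.47). In these bulk samples fewer cells with a transcript and less of it per cell cannot be told apart.

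CD8+ T cells showed no called member and no common direction. By limma 0 of 42 members were called, as were 0% of all probe sets in either direction, and 25 were lower and 17 higher in mean (50.6% of all probe sets were lower), with a median of -0.04 beside -0.003 for all probe sets. At an unadjusted p under 0.05 there were 0 members lower and 2 higher, Coro1a and Coro1c, against 2.23% and 1.99% of all probe sets, and the same 2 were the members whose arrays did not overlap (4.25% of probe sets lower, 4.35% higher). The methods' t-test gave 0 lower and 1 higher at an unadjusted p under 0.05 (2.04% and 2.09% of all probe sets) and 0 after adjustment.

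Coro1a, coronin 1A, a coronin of blood cells, had 9.76, 10.17 and 10.55 on LME arrays and 8.82, 8.24 and 8.17 on HCME arrays, a mean 3.36-fold higher (log2 difference 1.75, SE 0.28, adjusted p = 0.597). Its HCME arrays 2 and 3 lay close to the receptor background of 8.08, so the size of this difference carries that limit. Coro1c had 8.87, 10.07 and 9.60 on LME arrays and 8.75, 8.62 and 8.56 on HCME arrays (0.87, SE 0.31), and Coro1b differed by 0.19 (SE 0.50). Actn4 had 9.08, 9.56 and 9.01 on LME arrays and 9.05, 8.38 and 8.76 on HCME arrays (0.49, SE 0.25), which overlap. None of these differences passed over all probe sets.

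On the lower side, Tln1 had 11.39, 12.66 and 7.53 on LME arrays and 13.40, 10.40 and 12.48 on HCME arrays (-1.57, SE 1.38), a spread within each group wider than the difference. Elmo1 had 11.53, 10.58 and 10.50 on LME arrays and 11.79, 10.86 and 12.26 on HCME arrays (-0.77, SE 0.43), and Wipf1 9.43, 9.81 and 10.07 on LME arrays and 11.31, 9.93 and 10.19 on HCME arrays (-0.71, SE 0.39). Of the genes called in CD4+ Tconv, Rac2 averaged 15.98 ± 0.25 with LME and 15.88 ± 0.12 with HCME here, Arhgdib 16.98 ± 0.05 and 17.04 ± 0.04, Wasf2 16.53 ± 0.18 and 16.41 ± 0.15 and Actn1 13.09 ± 0.10 and 13.20 ± 0.40 (SD, n = 3 each). Dock2 varied more, with 13.89, 15.87 and 14.97 on LME arrays and 15.28, 14.78 and 14.89 on HCME arrays. Actb, Myh9 and Arpc2 differed by -0.03, -0.02 and -0.04, with SEs of 0.15.

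Treg also showed no called member, and most means were higher after LME-sEVs. By limma 0 of 42 members and 0% of all probe sets were called, 34 members were higher and 8 lower in mean (56.6% of all probe sets were lower), and the median was 0.29 beside -0.06 for all probe sets. At an unadjusted p under 0.05, Inf2 and Tmsb10 were lower and Wasf2 and Myl12a higher, 2 in each direction, against 3.3% and 2.82% of all probe sets. Arrays did not overlap for 2 members lower, the same genes, and 4 higher, Wasf2, Myl12a, Myl6 and Actn4, where 7.53% and 4.72% of all probe sets did so. The methods' t-test gave 2 lower and 0 higher at an unadjusted p under 0.05 (3.49% and 2.06% of all probe sets), and 0 after adjustment. Set against the HCME mean, the median member was at 0.12 to 0.30 on LME arrays and at 0.23, 0.27 and -0.44 on HCME arrays 1, 2 and 3. The 9 measured T-cell markers were also all higher in mean in Treg, with a median of 0.44. This list was the same for every subset: Cd3e, Cd3d, Cd3g, Cd4, Cd8a, Cd8b1, Il2ra, Ikzf2 and Ctla4. It holds Cd8a and Cd8b1, which do not mark Treg, and Foxp3 was not analysed here. Ctla4 had means of 12.21 for LME and 9.77 for HCME, with arrays that did not overlap (2.44, SE 0.77, limma adjusted p = 0.8). Its HCME array 3 was the lowest, at 7.83. Cd3e differed by 0.60 and Cd4 by 0.56, and the part of these markers in the members' shift was not tested. Without HCME array 3 the median difference was 0.07, with 23 members higher and 19 lower.

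**Figure D5:**
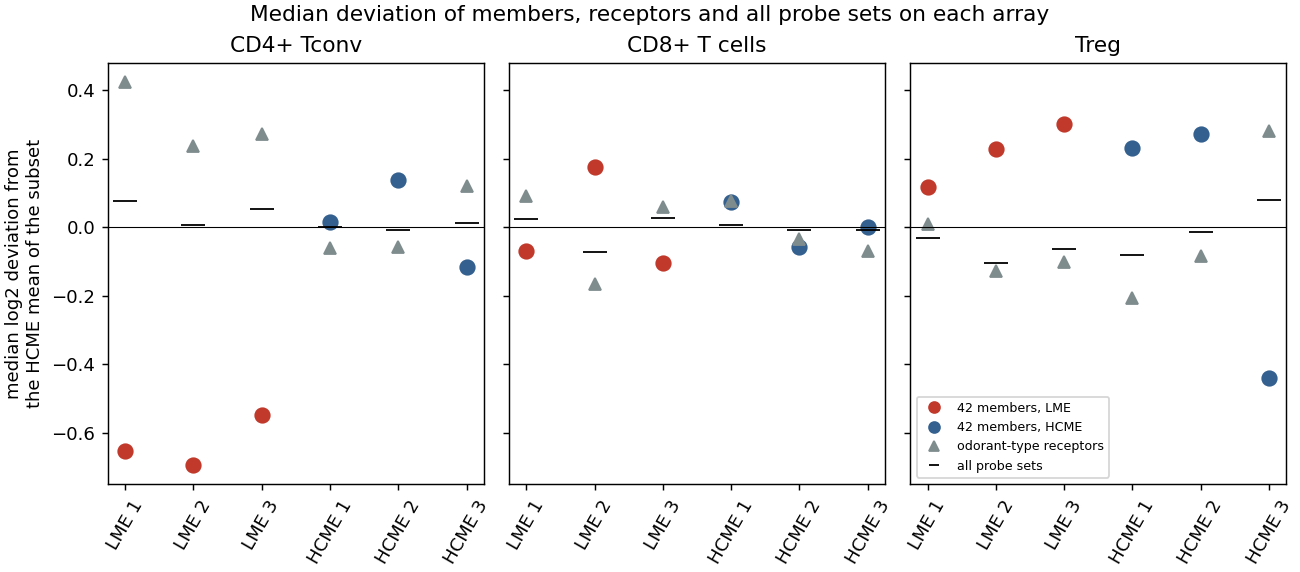
Median log2 deviation from the HCME mean of the subset on each array, LME arrays left of HCME arrays, for the 42 members (circles), the receptors that serve as background (triangles) and all probe sets (dashes). In CD4+ Tconv the members lie at -0.69 to -0.55 on LME arrays and -0.12 to 0.14 on HCME arrays, and in Treg the lowest circle is HCME array 3, at -0.44.

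Inf2 had the largest negative difference in Treg, with 8.33, 8.24 and 7.85 on LME arrays and 9.26, 9.15 and 9.40 on HCME arrays, an LME mean 45.7% of the HCME mean (-1.13, SE 0.22, adjusted p = 0.756). With all 18 arrays in one fit, Inf2 was the 1 member called (adjusted p = 0.0267), where 0.036% of all probe sets were called lower and 0.0811% higher. Fermt3 had 6.87, 7.49 and 6.38 on LME arrays and 7.96, 8.15 and 7.02 on HCME arrays (-0.80, SE 0.40), with a mean below the receptor background. Tmsb10 had 16.79, 17.01 and 16.75 on LME arrays and 17.31, 17.55 and 17.47 on HCME arrays (-0.59, SE 0.20). Its relative Tmsb4x differed by 0.38 (SE 0.37) the other way.

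The largest positive differences in Treg rested on single arrays. Dock2 had 12.04, 14.44 and 14.70 on LME arrays and 12.93, 13.38 and 7.24 on HCME arrays (2.54, SE 1.64), with HCME array 3 far below the others, and without that array the difference was 0.57. Lcp1 had 16.22, 16.08 and 15.87 on LME arrays and 16.62, 16.45 and 12.10 on HCME arrays (1.0, SE 1.14), which became -0.48 without HCME array 3. Actn4 had 10.46, 8.19 and 7.51 on LME arrays and 7.40, 7.33 and 6.46 on HCME arrays (1.66, SE 0.74), and without LME array 1 the difference was 0.79. All HCME signals of Actn4 and its LME array 3 lay below the receptor background of 7.62. More even were Myl12a, with 15.02 ± 0.13 after LME and 14.03 ± 0.61 after HCME, and Wasf2, with 16.89 ± 0.28 and 16.00 ± 0.69 (SD, n = 3 each; differences 0.99, SE 0.33, and 0.89, SE 0.38), though HCME array 3 was again the lowest for both (13.33 and 15.20). Actb, Rac2 and Arhgdib differed by 0.06, 0.09 and 0.12, less than their SEs of 0.21, 0.32 and 0.38.

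Whether the effect differed between subsets was tested as a contrast of the LME minus HCME differences over all 18 arrays, whose p-values may be too small (on simulated data both contrasts with Treg gave more false calls than the nominal rate). None of the 42 members passed an adjusted p of 0.05 by limma in any of the 3 contrasts, where 0.0135% of all probe sets passed for Treg minus CD4+ Tconv, 0% for CD8+ T cells minus CD4+ Tconv and 0.0135% for Treg minus CD8+ T cells. At an unadjusted p under 0.05, 22 members were higher and 1 lower in Treg than in CD4+ Tconv (6.71% and 7.5% of all probe sets), and 15 were higher and 2 lower in CD8+ T cells than in CD4+ Tconv (4.75% and 4.95%). Both contrasts use the same CD4+ Tconv arrays, whose upper decile lay closest to the receptor signals. The sample titles number these arrays apart from those of CD8+ T cells and Treg, whose numbers interleave. What the numbers stand for is not stated, so subset and sample series cannot be told apart. Within CD4+ Tconv the HCME arrays hold an unbroken run of numbers and the LME arrays the next run. In CD8+ T cells and in Treg the numbers of LME and HCME arrays are mixed. Between Treg and CD8+ T cells 2 were higher and 2 lower (3.17% and 3.06%). The contrasts nearest to the threshold were Wasf2, whose effect was 2.26 higher in Treg than in CD4+ Tconv (SE 0.44, adjusted p = 0.0745), and Inf2 (difference of effects -1.41, SE 0.26, adjusted p = 0.0745). Rac2 and Myl12a followed at 1.82 and 2.07 (adjusted p = 0.0901 each). Wasf2, Myl12a and Myl6 had LME arrays entirely below the HCME arrays in CD4+ Tconv and entirely above them in Treg. The share of all probe sets with this pattern was not counted, so it is a description of these genes only. Taken singly, 11.8% of all probe sets did not overlap in the lower direction in CD4+ Tconv and 4.72% in the higher direction in Treg. In Treg the lowest HCME array of each was array 3, at 15.20 for Wasf2, 13.33 for Myl12a and 16.06 for Myl6. For Myl6 the difference of effects was 0.91 (SE 0.31, adjusted p = 0.217). For Rac2 the effect in CD8+ T cells was 1.83 higher than in CD4+ Tconv (SE 0.34, adjusted p = 0.203), and it passed (adjusted p = 0.0413) when each subset kept its own spread. Without HCME array 3 of CD4+ Tconv, Rac2, Wasf2 and Myl12a passed for Treg minus CD4+ Tconv.

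A longer list of 100 further measured genes for actin regulators, myosins and linkers was likewise chosen with earlier results known. Its genes were also mostly lower in mean in CD4+ Tconv. Of these, 9 were called lower and none higher (0.941% and 0.0721% of all probe sets), 69 were lower in mean, and the median was -0.32. Set against the median of its own level bin, the median gene of this list differed by -0.21. The 4 with the largest difference were Add3, an adducin that caps and bundles filaments at the membrane (9.92 ± 0.23 with LME and 11.52 ± 0.29 with HCME; -1.60, adjusted p = 0.033), Cyfip2, a subunit of the WAVE complex (9.20 ± 0.53 and 10.75 ± 0.29; -1.55, adjusted p = 0.0379), Rhog, a GTPase that acts on Elmo proteins (7.19 ± 0.12 and 8.65 ± 0.29; -1.46, adjusted p = 0.033), and Arhgef1, an exchange factor (8.02 ± 0.04 and 9.38 ± 0.24; -1.36, adjusted p = 0.033; SD, n = 3 each). Nckap1l, the blood-cell subunit of the WAVE complex, was also among the 9 (-1.26, adjusted p = 0.049) and is named after its value was seen. Other WAVE subunits in the list, Abi1 and Brk1, differed by -0.57 each and were not called. Of the 9, 3 were above the receptor background of 8.80. Both group means of Rhog and the LME mean of Arhgef1 lay below it.

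In CD8+ T cells and Treg none of the 100 was called by limma, and none passed the methods' t-test after adjustment (6 lower and 2 higher at an unadjusted p under 0.05 in CD8+ T cells, 2 and 1 in Treg). By limma at an unadjusted p under 0.05 there were 6 lower and 2 higher in CD8+ T cells, where the lowest p belonged to Arpc5l, an Arp2/3 subunit isoform (-0.78, SE 0.21), Iqgap1, a scaffold that binds Rac and Cdc42 (-0.83, SE 0.22), and Arhgap19 (0.55, SE 0.16), with adjusted p from 0.947 to 0.998. In Treg there were 3 lower and 4 higher, led by the branch-binding protein Cttn (-1.17, SE 0.35), Iqgap2 (-1.13, SE 0.34) and Abi3 (0.55, SE 0.20), each with an adjusted p of 0.8. The medians of the list were -0.02 in CD8+ T cells and 0.03 in Treg.

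Levels of the members across subsets are given as a description, since it is not stated whether the subsets were normalized together. The CD4+ Tconv arrays also bear a separate run of sample numbers. Over LME and HCME arrays Actn1 had the widest range of means, 13.14 in CD8+ T cells, 9.55 in CD4+ Tconv and 7.27 in Treg, followed by Vasp (13.62 in CD8+ T cells, 9.63 in CD4+ Tconv and 11.28 in Treg) and Dock2 (14.95, 11.22 and 12.46 in the same order). Tmsb10 had the narrowest range, from 17.15 to 17.26. Of the members called in CD4+ Tconv, Rac2 was at 15.93 in CD8+ T cells, 15.30 in Treg and 12.83 in CD4+ Tconv, and Arhgdib at 17.01, 16.90 and 16.23.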

How the data were processed

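RNA of sorted T cells was hybridised to Clariom S mouse arrays (18 arrays, 6 groups of 3). The deposited values were log2 probe set signals, which the authors made from raw scans in Transcriptome Analysis Console. Not given in the sources used here are the genome build, the normalization method and whether subsets were normalized together. The labels and the methods name different labelling kits, so the amplification is not settled. Arrays have no read depth, and precision is set by their number.

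Groups came from the labels. LME was compared with HCME within each subset by limma (version 3.58.1, run in R 4.3.3; 6 arrays per fit), with Benjamini-Hochberg adjustment over 22206 probe sets. A call needed an absolute log2 difference above 1 together with an adjusted p under 0.05. Differences of effects between subsets were fitted over 18 arrays with array weights per subset. No probe set was filtered out, and gene names came from the platform annotation. The members and lists were chosen with earlier results of these data known. Named with every array were called members and the 3 largest differences in each direction per subset, and near relatives with group means. The fits were tested on simulated data, where both contrasts with Treg gave more false calls than the nominal rate. Alternatives covered normalization, filtering, variance model, a replicate block, the methods' t-test, a receptor covariate and leaving out each array.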

Additional observations from a re-analysis of the deposited data

How the results depend on the processing

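In CD4+ Tconv, 6 members were called lower as reported. This became 1 after quantile normalization, 1 after cyclic loess, 2 with arrays centred on probe sets above background, 2 with limma's trend and robust options, 1 with all 18 arrays in one fit, 0 by the methods' t-test and 0 with the receptor covariate, which was chosen after seeing the data. That covariate separated LME from HCME arrays, and with it 0 of all 22206 probe sets were called. The count of members became 9 of 28 when only probe sets above background were tested and 9 with array weights. Leaving out 1 array gave 0 to 5. The median of the members was -0.46 after quantile normalization, -0.43 after cyclic loess and -0.39 after centring, where the median of all probe sets was 0.36. The cause of these changes was not tested. Calls over all probe sets in CD4+ Tconv ranged from 0 to 399 lower, against 209 as reported. With the replicate number as a replicate block, 0 members were called in CD4+ Tconv (lowest adjusted p 0.0531). Deviations of same-numbered CD4+ Tconv arrays correlated at -0.137, 0.19 and -0.155, and those of arrays with unlike numbers at -0.335 to 0.422. With 3 arrays per group, whose deviations depend on each other, this cannot decide whether the numbers mark pairs. The labels do not state pairs, and the main fit used none. In Treg, 1 member was called lower with all 18 arrays in one fit, and Lcp1 ranged from -0.48 (without HCME array 3) to 1.78 (without HCME array 1). For Treg minus CD4+ Tconv, 0 to 3 members passed when 1 array was left out, and for CD8+ T cells minus CD4+ Tconv 1 passed with each subset's own spread. Each member had 1 probe set, so the choice of probe set had no effect, and a comparison of proteins was not run.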
